A study of Arabidopsis thaliana and Zea mays with 12 samples.

Results

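The surface of a leaf is sealed by wax, and the 10 genes described here make that wax or carry it out of the epidermal cell. They were chosen by gene identifier for their known function, though with earlier results of these data known. All 10 were found among the 27411 genes of the expression table. They are KCS1, KCS6 and CER2 of acyl chain elongation, CER1 and CER3 of the alkane branch, CER4 and WSD1 of the alcohol and ester branch, and LTPG1, ABCG11 and ABCG12 (CER5) of export. The study examined N4-acetyldeoxycytosine (4acC), a modified base of DNA, and used RNA-seq to set this mark against gene expression. The RNA came from 3-week-old wild-type Arabidopsis thaliana plants of the accession Col-0, for which the labels give leaves as the tissue and the methods name only plants, grown untreated at 22 °C in long days. Of the 12 samples of the series, the 2 RNA-seq replicates have expression values, and the other 10, from 4acC immunoprecipitation and its input, were not analysed here. With 1 condition, no comparison between conditions can be made, and all values below describe these 2 libraries.

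Cuticular wax is made in epidermal cells from fatty acids of the plastid. In the endoplasmic reticulum an elongase complex lengthens them to very-long-chain acyl-CoAs, which either pass through the alkane branch to aldehydes, alkanes and their derivatives or are reduced to primary alcohols that can be joined to acids as wax esters. ABC transporters of the plasma membrane and lipid transfer proteins anchored to its outer face then bring the products to the cuticle, where they lie in and on the polyester cutin.

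Levels are given as FPKM, the fragments of a gene per 1000 bases of its transcript, scaled by the size of the library. The values of all 22540 genes above 0 turned out to be whole numbers of reads divided by a gene length and by a fixed library total, which was 93100036 reads in replicate 1 and 105573623 in replicate 2. The reads behind each value could therefore be counted up to a whole multiple, since a longer gene with more reads gives the same value, and a 95% counting interval is given where it matters. For 9 of the 10 wax genes this count is the smallest that gives both values, and CER4 is taken up below. Over all genes the multiple nearest to the annotated length was used, and these reads summed to 104% and 103% of the library totals, against 82.3% and 81.2% for the smallest counts. Such intervals cover counting error only, and whether 1 read stands for a single read or a pair is not stated. They take each read as an independent count and would be too narrow if the mates of a pair were counted apart. One read in a gene of 1000 bases was worth 0.0107 FPKM in replicate 1 and 0.00947 in replicate 2.

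Wax genes were spread over a 276-fold range. KCS6 and LTPG1 led in both replicates, and CER4 and WSD1 were the lowest in both. Of the 10 genes, 8 had a mean above 1 FPKM, beside 47.7% of all genes, and 6 lay in the top 25% of genes, which began at 6.10 FPKM and by construction hold 25% of all genes. Over genes above 0 alone, 4 lay in the top 25%, without CER1 and CER2. Their median was 7.40 FPKM, beside 0.823 for all genes. These counts describe a chosen set and carry no test. The RNA is from bulk tissue, in which few epidermal cells and little RNA per epidermal cell cannot be told apart.

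**Figure D1:**
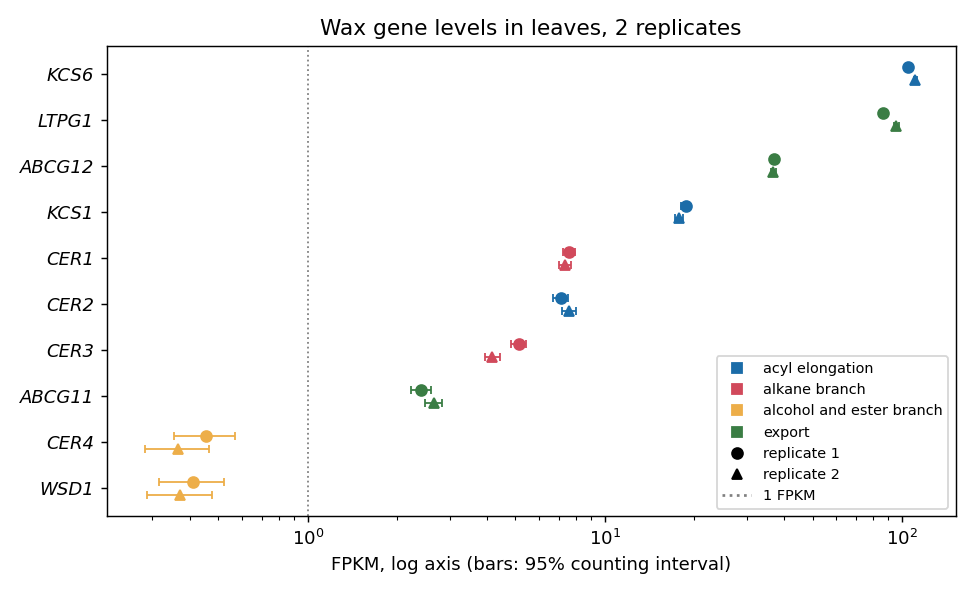
Level of each wax gene in FPKM (x axis, log scale) in replicate 1 (circles) and replicate 2 (triangles), coloured by role, with bars for the 95% counting interval of each value and a dotted line at 1 FPKM. KCS6 stands near 108 FPKM, LTPG1 near 91.1 and CER4 and WSD1 near 0.4, and the symbols of the 2 replicates lie close together beside the distances between most genes.

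Short stretches of sequence show how alike some of the counted genes are. KCS5 and KCS1 were the only KCS genes whose coding sequence was aligned with KCS6, and KCS5 was the closer (81.3% identity against 62.4%). AT2G38995 is a WSD1-like gene with 79.2% identity to WSD1. The lines below give 30 aligned coding bases of each pair from the TAIR10.1 assembly, 5′ to 3′ on the coding strand. They hold the longest identical run in the alignment of each pair. Capitals mark the bases that differ. The KCS6 stretch is at chr1:25714470-25714499 and the KCS5 stretch at chr1:8940034-8940063, both on the minus strand.
KCS6: acTgtttacttcatgtccaagccacgCacc
KCS5: acCgtttacttcatgtccaagccacgTacc
WSD1: gtgaatgatgttcttcttggaatgacacaA
AT2G38995: gtgaatgatgttcttcttggaatgacacaG
The WSD1 stretch is at chr5:14768674-14768703 and that of AT2G38995 at chr2:16283318-16283347, both on the plus strand. The longest identical run in the alignment was 23 bases for KCS6 and KCS5 and 29 bases for WSD1 and AT2G38995. A pair not shown, CER1 and AT1G02190, had a longer run, of 32 bases. No window of 50 bases of any of the 10 wax transcripts occurred elsewhere in the genome, so a read that matches 50 bases exactly comes from 1 place.

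Elongation is carried by KCS enzymes, the condensing enzymes that set the chain length of the acyl-CoA product. KCS6 (AT1G68530; chromosome 1, 25712414 to 25715024, minus strand, 2 exons) makes the long precursors of most wax in shoots. It was at 104.9 FPKM in replicate 1 and 111.0 in replicate 2, or 108 ± 4.25 (SD, n = 2), from 21691 and 26006 reads. It was the highest of the 10 wax genes in each replicate and stood at percentile 96.3 of all genes. KCS1 (AT1G01120; chromosome 1, 57164 to 59215, minus strand, 1 exon), a broader condensing enzyme of very-long-chain acids, was at 18.7 and 17.8 FPKM, or 18.2 ± 0.682 (SD, n = 2). KCS6 thus exceeded KCS1 5.61-fold in replicate 1 and 6.25-fold in replicate 2, and the values of these genes did not overlap.

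Arabidopsis has 21 KCS genes, and all of them are in the table. KCS6 alone made up 45.7% of their summed FPKM in replicate 1 and 47.3% in replicate 2. KCS9 followed at 21.6 ± 0.729 FPKM (SD, n = 2) and KCS1 was the third, ahead of KCS10 at 16.3, KCS20 at 13.5, KCS3 at 11.6 and KCS8 at 10.2. KCS18, known as FAE1 and active in seed oil, was listed at 0 in both replicates. Of the 21 genes, 14 were above 1 FPKM, beside 47.7% of all genes, and 10 were in the top 25% of all genes. Their median was 3.72 FPKM. KCS5, the relative shown above, was at 7.84 FPKM, so KCS6 exceeded it 13.1-fold in replicate 1 and 14.5-fold in replicate 2.

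The other 3 enzymes of the elongase cycle serve all KCS enzymes. The ketoacyl-CoA reductase KCR1 was at 43.6 FPKM, the enoyl-CoA reductase CER10 at 43.2 each a mean of 2 replicates, and the dehydratase PAS2 at 33.5 and 30.5. All 3 lay in the top 25%, below KCS6 and above KCS1.

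CER2 (AT4G24510; chromosome 4, 12660687 to 12662656, plus strand, 2 exons) is a BAHD family protein without a known condensing activity that is needed with KCS6 for the longest chains. It was at 7.10 and 7.57 FPKM, or 7.33 ± 0.336 (SD, n = 2), from 1034 and 1251 reads. Its relative CER26, which is known for its role in leaf wax, was at 64.1 FPKM in replicate 1 and 74.5 in replicate 2. CER26 exceeded CER2 9.04-fold in replicate 1 (counting interval 8.48 to 9.65) and 9.85-fold in replicate 2 (9.29 to 10.4), and CER26-LIKE, at 17.7 FPKM, was also above CER2. CER2 was thus the lowest of the 3 genes in each replicate. In their alignment, the coding sequence of CER2 was 61.2% identical to that of CER26, with no identical run over 20 bases.

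CER2 overlaps its neighbour AT4G24520, a P450 reductase gene on the opposite strand, in 96 exon bases, which are 5.90% of its transcript. That neighbour was at 4.50 and 4.55 FPKM. A long noncoding RNA gene that is not in the table covers another 316 bases of CER2 on the opposite strand. Whether reads were counted by strand is not stated, so reads of these stretches cannot be told apart.

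Long-chain acyl-CoA synthetases activate the acids before elongation and before export. LACS4 was at 8.36 FPKM, LACS1 at 4.32, LACS2, known for cutin, at 2.28 and LACS3 at 1.26. All 4 were above 1 FPKM, beside 47.7% of all genes, and 1, LACS4, was in the top 25% of all genes.

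The alkane branch needs CER1 and CER3, which act as a pair in converting acyl-CoA to alkane. CER1 (AT1G02205; chromosome 1, 418416 to 422579, plus strand, 5 annotated transcripts) was at 7.58 and 7.36 FPKM, or 7.47 ± 0.151 (SD, n = 2), from 1687 and 1859 reads. CER3 (AT5G57800; chromosome 5, 23420184 to 23424117, plus strand, 11 exons) was at 5.12 and 4.18 FPKM, or 4.65 ± 0.667, from 1192 and 1103 reads. CER3 was below CER1 in both replicates.

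The ratio of CER3 to CER1 was 0.676 in replicate 1 (counting interval 0.627 to 0.729) and 0.568 in replicate 2 (0.527 to 0.612), a mean log2 ratio of -0.69 ± 0.18 (SD, n = 2). With each read taken as an independent count, the 2 intervals do not overlap. They would be wider if the mates of a pair were counted apart, and whether they would then overlap was not tested. The length of CER1 implied by the deposited values was 2392 bases, and the longest TAIR10.1 transcript has 2976. Computed with the longest transcripts, the log2 ratio was -0.43, with CER3 still below CER1.

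MAH1 is the hydroxylase that turns alkanes into secondary alcohols and ketones, which are known from stem wax. It was at 0.0497 and 0.0274 FPKM. CER1 exceeded it 152-fold in replicate 1 (counting interval 77.2 to 354) and 269-fold in replicate 2 (115 to 829), on 8 and 5 reads of MAH1.

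The alcohol and ester branch was the weakest of the wax genes. CER4 (AT4G33790; chromosome 4, 16204096 to 16207956, minus strand, 10 exons), the reductase that makes primary alcohols, was at 0.453 and 0.366 FPKM, or 0.410 ± 0.0614 (SD, n = 2). WSD1 (AT5G37300; chromosome 5, 14767426 to 14770396, plus strand), the wax ester synthase, was at 0.410 and 0.373 FPKM, or 0.391 ± 0.0261. Both were above 0 and below 1 FPKM in each replicate.

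WSD1 rested on 63 and 65 reads. CER4 rested on 72 and 66 reads if its length was 1706 bases, or on 36 and 33 if it was 853, and the values do not tell these apart. The 2 genes changed order between replicates, with CER4 1.11 times WSD1 in replicate 1 and 0.983 times in replicate 2, and at this depth no difference between them was detectable. Summed, CER1 and CER3 exceeded CER4 and WSD1 14.7-fold in replicate 1 and 15.6-fold in replicate 2.

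CER4 belongs to the fatty acyl-CoA reductase (FAR) family, most of which serves other barriers such as suberin and the pollen wall. FAR1, a suberin enzyme, was the only other FAR gene above 1 FPKM, at 1.34 and 1.21, and exceeded CER4 2.95-fold in replicate 1 (counting interval 2.25 to 3.90) and 3.31-fold in replicate 2 (2.51 to 4.43), taking the larger read counts of CER4. FAR5 was at 0.0633 FPKM, FAR4 and FAR2 were listed at 0 in replicate 2, FAR6 was listed at 0 in replicate 1, and FAR7 and FAR8 were listed at 0 in both. The median of the 7 other FAR genes was 0.00598 FPKM, so CER4 was the second of its family in these libraries.

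The annotation calls 11 further genes WSD1-like, a list drawn up after the data were seen. AT2G38995, shown above, was the only one above 1 FPKM, at 1.57 and 1.37, and exceeded WSD1 3.84-fold in replicate 1 (counting interval 2.90 to 5.15) and 3.67-fold in replicate 2 (2.78 to 4.91). AT5G12420 was at 0.790 FPKM, AT3G49210 at 0.520 and AT5G16350 at 0.451, all means above that of WSD1. Of the 11 genes, 6 were above 0, and the other 5 were listed at 0 in both replicates.

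Export begins with ABC transporters of the plasma membrane. ABCG12 (AT1G51500; chromosome 1, 19097712 to 19101265, minus strand, 8 exons), the CER5 gene, exports wax as a partner of ABCG11. It was at 37.2 and 36.9 FPKM, or 37.0 ± 0.244 (SD, n = 2), from 8115 and 9117 reads, the closest replicates of the 10 genes. ABCG11 (AT1G17840; chromosome 1, 6142402 to 6146521, plus strand, 10 exons), which pairs with ABCG12 and also with itself and serves cutin as well, was at 2.41 and 2.65 FPKM, or 2.53 ± 0.173. The partners differed widely, with ABCG11 at 0.0646 of the ABCG12 level in replicate 1 (counting interval 0.0597 to 0.0699) and 0.0719 in replicate 2 (0.0669 to 0.0771).

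ABCG11 shares 596 exon bases, 18.6% of its transcript, with AT1G17850 on the opposite strand, which was at 1.11 and 1.35 FPKM. A noncoding RNA gene that is not in the table covers another 13.4% of the ABCG11 transcript. The part of these genes in the ABCG11 level was not tested. Of the same subfamily, ABCG32, which serves cutin, was at 2.28 FPKM, near ABCG11, and ABCG13, known from petals, was at 0.346. The rest of the subfamily was not examined. ABCG12 exceeded ABCG32 16.4-fold in replicate 1 and 16.0-fold in replicate 2, and ABCG13 99.0-fold and 117-fold.

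LTPG1 (AT1G27950; chromosome 1, 9740508 to 9742159, plus strand, 2 exons) is a lipid transfer protein held at the cell surface by a glycosylphosphatidylinositol anchor. It was at 86.4 and 95.9 FPKM, or 91.1 ± 6.71 (SD, n = 2), from 6321 and 7955 reads, and was the second wax gene in both replicates. KCS6 exceeded it 1.21-fold in replicate 1 and 1.16-fold in replicate 2. Its relative LTPG2 was higher still, at 341 and 323 FPKM, and exceeded LTPG1 3.95-fold in replicate 1 (counting interval 3.84 to 4.06) and 3.37-fold in replicate 2 (3.29 to 3.46). LTPG2 was lower and LTPG1 higher in replicate 2, and no identical run in the alignment of their coding sequences was over 7 bases. KCS6 and LTPG1 together made up 70.8% of the summed FPKM of the 10 wax genes in replicate 1 and 72.8% in replicate 2.

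**Figure D2:**
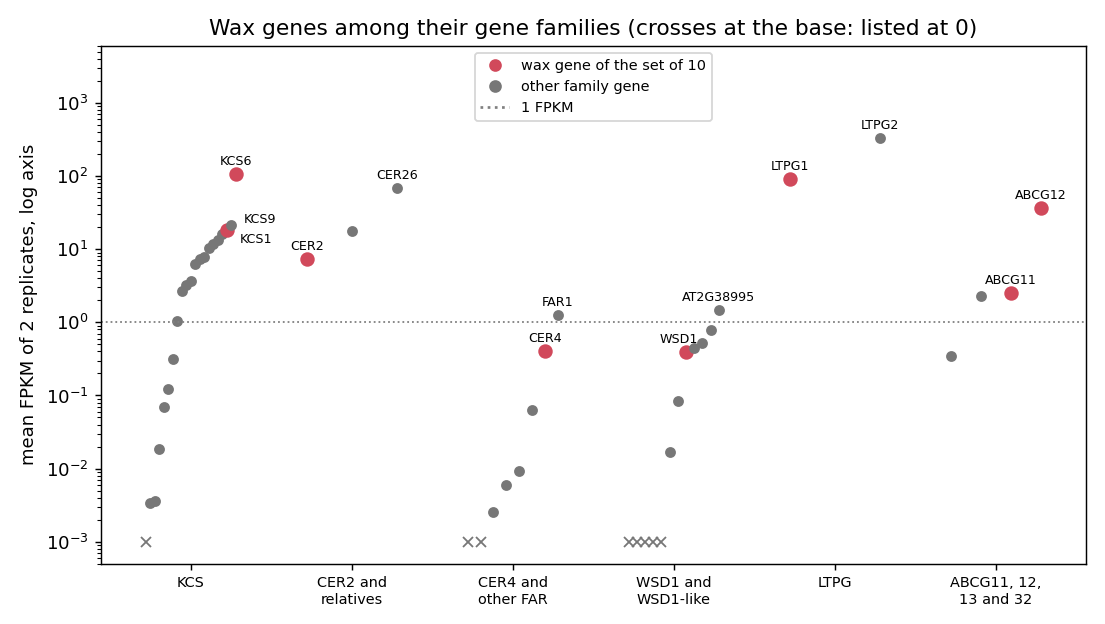
Mean FPKM of 2 replicates (y axis, log scale) of the wax genes (red) and of the other genes examined of each family (grey). Genes are sorted by level within a family, with crosses at the base for genes listed at 0 and a dotted line at 1 FPKM. KCS6 is the highest of 21 KCS genes at 108 FPKM, whereas CER2, CER4, WSD1 and LTPG1 each have a relative with a higher level.

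Along the order of levels, from KCS6 through LTPG1, ABCG12, KCS1, CER1, CER2, CER3, ABCG11 and CER4 to WSD1, 7 of the 9 neighbouring pairs kept their order and did not overlap between replicates. The pairs CER1 with CER2 and CER4 with WSD1 overlapped and changed order. ABCG11 and CER4 were the neighbours farthest apart, at 5.31-fold in replicate 1 and 7.23-fold in replicate 2. With the longest TAIR10.1 transcripts as lengths, CER2 lay above CER1 in both replicates (6.83 and 7.28 FPKM against 6.09 and 5.92), and CER4 above WSD1 in both (0.395 and 0.320 against 0.344 and 0.313), while the other genes kept their order. The order of CER1 and CER2 therefore depends on the transcript length that was used. For CER4 and WSD1 no order is settled. With the lengths implied by the deposited values, the counting interval of their ratio held 1 in replicate 1 (0.778 to 1.58) and in replicate 2 (0.687 to 1.41).

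**Figure D3:**
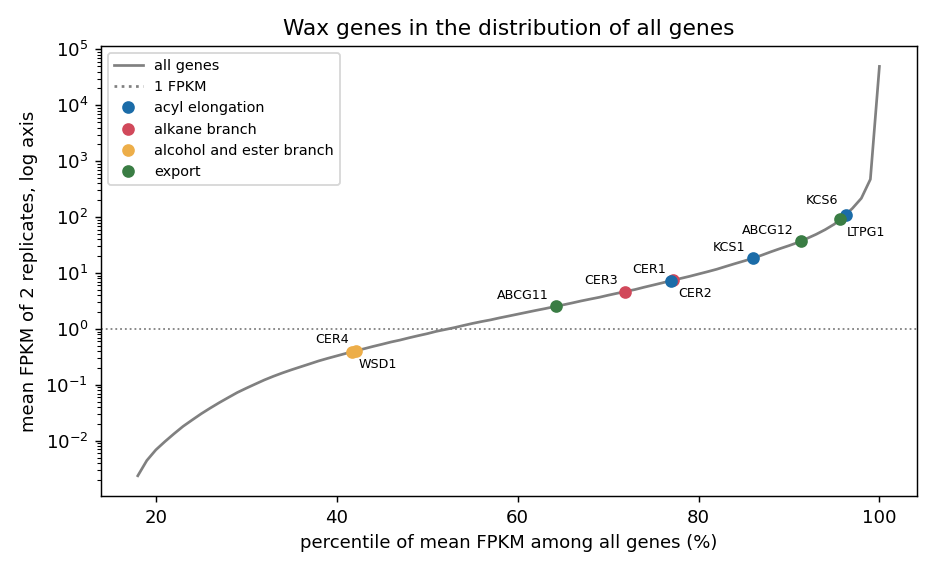
Mean FPKM of 2 replicates (y axis, log scale) against percentile among all 27411 genes (x axis), with the wax genes as points coloured by role, all genes as a grey line drawn from its first value above 0.001 FPKM, and a dotted line at 1 FPKM. KCS6 and LTPG1 lie at percentiles 96.3 and 95.6, and CER4 and WSD1 at 42.1 and 41.7, below the middle of the table.

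Between the 2 libraries none of the 10 wax genes differed at least 1.5-fold on FPKM + 1. Such a difference was found for only 0.383% of all genes, so its absence among 10 genes does not set them apart. Adding 1 FPKM also shrinks the ratios of low genes, with CER4 at a log2 ratio of -0.31 without it and -0.09 with it. LTPG1, ABCG11, CER2 and KCS6 were higher in replicate 2 and the other 6 lower, and among all genes above 1 FPKM 31.7% were higher in replicate 2. The SD between replicates ranged from 0.658% of the mean for ABCG12 to 15.0% for CER4, beside a median of 6.88% over genes above 1 FPKM.

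For 4 wax genes the 95% counting interval of the ratio of replicate 2 to replicate 1 left out 1. All 4 were among the 8 wax genes above 1 FPKM. Of all genes above 1 FPKM, the interval left out 1 for 51.7%, or 47.6% with the fewest reads that give each value. The 4 wax genes were KCS6 (ratio 1.06, interval 1.04 to 1.08), LTPG1 (1.11, 1.07 to 1.15), KCS1 (0.948, 0.904 to 0.995) and CER3 (0.816, 0.751 to 0.886). A ratio of 1 was not the centre of these libraries, since the median log2 ratio of genes above 1 FPKM was -0.09. The KCS1 interval, -0.145 to -0.00764 in log2, holds that median. Those of ABCG12, CER2 and ABCG11 hold a ratio of 1 but not that median. The intervals of WSD1 (0.633 to 1.31) and CER4 (0.570 to 1.14 on 72 and 66 reads, 0.488 to 1.33 on 36 and 33) were the widest. If each read is an independent count, the smaller difference of CER3 exceeded counting error, whereas the largest, that of CER4, did not.

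Among genes above 1 FPKM, the median log2 ratio of replicate 2 to replicate 1 without pseudocount was -0.09, with 5th and 95th percentiles of -0.42 and 0.24. All 10 wax genes lay inside this range. The median log2 ratio of the wax genes on FPKM + 1 was -0.02, beside -0.07 for genes above 1 FPKM. Relative to the latter it was 0.04, so the direction of this median rests on the scaling. With 1 library on each side, these ratios have no test.

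**Figure D4:**
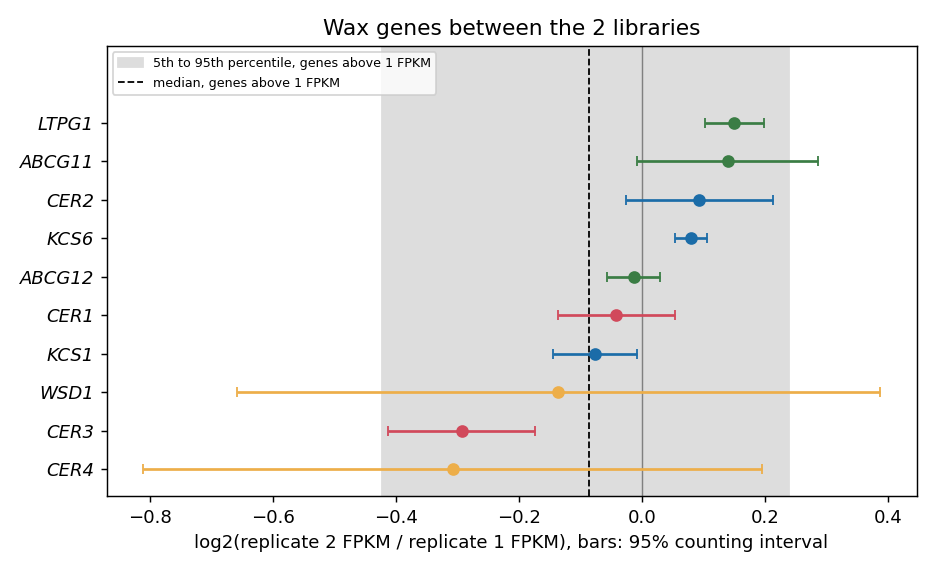
Log2 ratio of FPKM in replicate 2 to replicate 1 (x axis) for each wax gene, coloured by role, with bars for the 95% counting interval, the 5th to 95th percentile of genes above 1 FPKM as a grey band, and their median as a dashed line. All 10 points lie inside the band, CER3 lies left of 0 with its whole bar, and the bars of CER4 and WSD1 are the longest.

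Wax genes are driven by transcription factors of the MYB and AP2/ERF families. Of 12 regulators listed, 11 were examined, because the annotation does not give the symbol of the other. Of these 11, 9 were above 1 FPKM, beside 47.7% of all genes, and 2 were in the top 25% of all genes. Their median was 2.82 FPKM. DEWAX, an AP2/ERF repressor of wax genes that is known to act in the dark, was the highest at 59.9 and 54.7 FPKM. The activators MYB30, at 11.1 FPKM, MYB16, at 4.65, and MYB94, at 3.06, were lower, and the AP2/ERF activator SHN3 was the lowest regulator at 0.635. CER9, a ubiquitin ligase known to limit wax and cutin, was at 3.31 FPKM. The repressor DEWAX was thus above every activator examined in both replicates.

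Cutin, the polyester that wax impregnates, is made in the same cells. All 10 cutin genes listed were above 1 FPKM, beside 47.7% of all genes, and 4 were in the top 25% of all genes, with a median of 4.85. The fatty acid hydroxylase gene CYP86A2 was the highest at 169 and 200.4 FPKM and exceeded KCS6 1.61-fold in replicate 1 and 1.81-fold in replicate 2. The hydroxylase gene CYP86A8 was at 19.2 FPKM, the acyltransferase genes GPAT8 and DCR were at 17.9 and 15.0, and HTH was at 5.35. CYP86A4, at 1.32, was the lowest. None of the 4 genes listed for suberin, the barrier polyester of roots, was above 1 FPKM, with a median of 0.124, and ASFT was the highest at 0.261. The suberin enzyme gene FAR1, counted above with the FAR family and not in this list, was above 1, at 1.34 and 1.21 FPKM.

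Promoter sequence was searched for short motifs after the data were seen. The L1 box, TAAATGCA, is the binding motif of the epidermal factors ATML1 and PDF2, and it was found in the 1000 bases before the gene start of 2 of the 10 wax genes, beside 5.93% of 27444 promoters. Its variant TAAATGTA was found in 2 wax genes, beside 10.5% of promoters. Both strands were searched, and the windows below are from the TAIR10.1 assembly and are written along the strand of the gene, with the motif or its complement in capitals.
LTPG1: tatggtatggaTGCATTTAatactcttcct
ABCG11: tctattcatacTAAATGCAaaccatctatc
ABCG11 variant: ccagactgcatTAAATGTAacaagtaacaa
KCS6 variant: gggtataaacgTACATTTAatttacacgta
The LTPG1 window, at chr1:9740230-9740259 on the plus strand, has the motif in the reverse direction 267 bases before the gene start. The ABCG11 windows, at chr1:6142309-6142338 and chr1:6142344-6142373 on the plus strand, have their motifs 82 and 47 bases before the start. The KCS6 window, at chr1:25715690-25715719 on the minus strand, has its motif reversed 684 bases before the start. The genes with a match include 2 of the highest and 1 of the lower wax genes.

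Of the other motifs, TAACTA, a core that MYB factors bind, was found in 8 of 10 wax promoters, beside 56.1% of all. TAACTG was found in CER2 alone (29.2% of all promoters), GGTTGGT in WSD1 alone (10.7%), the G box CACGTG in CER1 alone (14.8%), and the GCC box GCCGCC, bound by AP2/ERF factors, in none (8.44%). TATAAA was found in all 10, beside 83.6%. With so few genes, these matches are a description of the windows and no evidence of binding.

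Markers of cell types were compared with the wax genes in the same libraries. All 3 epidermal markers were above 1 FPKM, beside 47.7% of all genes. The surface protein gene PDF1 was at 34.2 FPKM and the factors ATML1 and PDF2 at 4.07 and 2.90. KCS6 exceeded PDF1 3.24-fold in replicate 1 and 3.08-fold in replicate 2, and LTPG1 exceeded it 2.67-fold and 2.66-fold. The mesophyll markers CAB1, RBCS1A and CA1 ranged from 1884 to 40786 FPKM. The 3 vascular markers were above 1 FPKM, as were 2 of 3 guard cell markers, whereas neither trichome marker, neither pollen marker and none of 3 flower markers was. Of 3 root markers, the beta-glucosidase gene PYK10 was above 1, at 7.02 and 7.98 FPKM, and the others were at 0.653 or below. How much of each wax level came from which cell type was not tested.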

How the data were processed

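RNA was extracted from 2 biological replicates of wild-type plants (leaves, per the labels). Per the methods, ribosomal RNA was removed with an mRNA kit and paired-end reads were sequenced. Alignment to TAIR10 was with TopHat2 v2.0.9, and the authors deposited FPKM values from Cufflinks v2.1.1, 1 per gene and replicate. Cufflinks estimates fragments by a model and need not give whole reads, so how the deposited values were made is uncertain. For the annotation release, strand setting and multiply matching reads, details were not given in the sources used here.

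From the deposited FPKM values, means, SDs, percentiles and ratios were computed, with a pseudocount of 1 FPKM where stated. No filter on low values was used. Whole reads were recovered by finding, for each gene, the smallest length that gave whole numbers in both replicates within 1e-06 reads, or the multiple of it nearest to the longest TAIR10.1 transcript. All 22540 genes above 0 were whole, with a largest distance of 4.66e-09 reads, and denominators changed by a factor of 1.001 left 288 whole. Ratios of reads have exact binomial intervals (95%). On simulated whole reads, with the library totals given and no annotated lengths, the steps recovered the ratio of reads between replicates for all 22230 genes. The choice of the multiple was not tested. Of 200 genes shifted 2-fold, drawn from those with at least 200 reads in replicate 1, 189 were called 1.5-fold apart on FPKM + 1.

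The wax genes and lists were chosen with earlier results of these data known, and read recovery, sequence comparisons, the motif search and the WSD1-like list were added after the values were seen. All 10 wax genes are named. Of other lists the 5 highest genes and the lowest were eligible, of lists up to 4 all. Of 108 listed genes, 11 were left out because the annotation does not give their symbol. No gene was named for a similar pattern, since 2 libraries of 1 condition give none. Tests were not made, because the smallest two-sided p of 2 libraries is 0.5. Python 3.11.15, numpy 2.4.6, pandas 2.3.3, scipy 1.17.1, Biopython 1.88 and matplotlib 3.10.9 were used.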

Additional observations from a re-analysis of the deposited data

How the results depend on the processing

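No paired analysis was possible because the values cover a single condition. Of 94 alternatives, 79 left the value within its bounds. These 79 include the fall of the count in the top 25% from 6 to 4 that is given below. The median log2 ratio of the wax genes, -0.0248, became 0.00977 as TPM, 0.0387 with replicates scaled to a common median of genes above 1 FPKM, and 0.0443 less that median. Their median level was 7.51 as TPM and 6.53 with the longest TAIR10.1 transcripts as lengths, an alternative chosen after seeing the data. With those lengths, the CER3 over CER1 log2 ratio was -0.426, and LTPG1 was at 72.9, ABCG12 at 33.2, KCS1 at 16.9 and WSD1 at 0.328 FPKM. ABCG12 was at 37.6 as TPM. The wax genes took 0.0271% and 0.0292% of the summed FPKM of the 2 libraries, which became 0.0552% and 0.0646% without the 100 highest genes, whose removal shrinks the sum. With a replicate left out, the CER4 over WSD1 log2 ratio ranged from -0.0244 to 0.146. The cause was not tested except where lengths or fewer genes change the value by construction. The count of wax genes in the top 25% fell from 6 to 4 with quartiles over genes above 0, and was 6 under the other alternatives run. Depth limits CER4, WSD1 and MAH1, the genes of fewest reads named with a ratio.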
